A study of Mus musculus with 24 samples.

Results

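Vcan and 3 genes around it on mouse chromosome 13, Hapln1, Xrcc4 and Edil3, were followed through 24 RNA-seq libraries of mouse embryonic stem (ES) cells in which the chromatin protein CTCF can be depleted. These 4 genes were chosen by name from the 51697 named genes of the deposited count table, and their levels are given as CPM, counts scaled to the size and composition of each library. The cells were F123, a hybrid mouse ES cell line whose CTCF carries an auxin-inducible degron (CTCF-AID), so that auxin leads to the destruction of the CTCF protein. ES cells were harvested after 0, 24, 48 or 96 h of auxin. Other cells were taken through differentiation toward neural progenitors with auxin or as controls without it, and harvested on days 2, 4 and 6. In the 2 washout groups the medium with auxin was washed out on day 4 or on day 6, and harvest followed after 2 more days, hence on day 6 or day 8. Each of the 12 groups had 2 libraries. Every group carried the degron, the controls included, and the series as analysed here has no cells that received auxin but lack the degron, so an effect of auxin itself and an effect of CTCF loss cannot be told apart. The labels do not give the number of clones, nor do they say that replicates came from separate cultures, so p-values measure the spread between these libraries, which may be technical.

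Versican, the product of Vcan, is a large chondroitin sulfate proteoglycan of the extracellular matrix that binds hyaluronan and is abundant in developing tissues. Hapln1 encodes hyaluronan and proteoglycan link protein, which locks proteoglycans such as versican onto hyaluronan. Edil3 (also known as Del-1) encodes a secreted glycoprotein that binds integrins, and Xrcc4 encodes a partner of DNA ligase IV in non-homologous end joining, a main route of repair of DNA breaks. CTCF is a zinc-finger protein that anchors chromatin loops, and the series is about CTCF bound close to promoters and genes driven by distant enhancers.

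On the mm10 build the genes lie in the order Edil3, Hapln1, Vcan and Xrcc4, by the GENCODE annotation. Edil3 spans chr13:88821472-89323223 on the plus strand and Hapln1 chr13:89539796-89611652 on the plus strand. Vcan spans chr13:89655312-89742509 on the minus strand and Xrcc4 chr13:89774027-90089608 on the minus strand. The gaps between neighbours are 217 kb between Edil3 and Hapln1, 43.7 kb between Hapln1 and Vcan, and 31.5 kb between Vcan and Xrcc4. Hapln1 and Vcan thus point toward each other, and the start of Vcan faces the end of Xrcc4. Vcan overlaps 2 annotated genes on the opposite strand, Gm16318 (a processed pseudogene, 601 bases) and Gm4117 (an antisense transcript, 3050 bases). Gm4117 also overlaps Xrcc4, by 113140 bases, and Xrcc4 shares 486 bases with Tmem167 on the other strand. The strand setting of the counting is not given in the sources used here, so reads in these overlaps cannot be told apart.

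The promoters are shown because the members were compared for moving together and because the series asks about CTCF near promoters. Each line holds the 250 bases before the RefSeq gene start (GRCm38.p6), 5′ to 3′ on the strand of the gene, for the 3 genes that had an entry, and the RefSeq start of Hapln1 lies downstream of its GENCODE start. GENCODE annotates 9 transcript starts for Vcan, 2 for Hapln1 and 4 for Xrcc4, and windows at other starts were not searched. Capitals mark GC boxes (GGGCGG or its reverse complement) and CCAAT boxes (CCAAT or its reverse complement).
Vcan, chr13:89742513-89742762, minus strand: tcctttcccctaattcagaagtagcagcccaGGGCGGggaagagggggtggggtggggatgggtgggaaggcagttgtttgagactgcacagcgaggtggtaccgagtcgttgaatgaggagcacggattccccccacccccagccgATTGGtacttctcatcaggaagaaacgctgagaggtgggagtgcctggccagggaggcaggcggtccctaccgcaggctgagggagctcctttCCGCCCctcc
Hapln1, chr13:89540386-89540635, plus strand: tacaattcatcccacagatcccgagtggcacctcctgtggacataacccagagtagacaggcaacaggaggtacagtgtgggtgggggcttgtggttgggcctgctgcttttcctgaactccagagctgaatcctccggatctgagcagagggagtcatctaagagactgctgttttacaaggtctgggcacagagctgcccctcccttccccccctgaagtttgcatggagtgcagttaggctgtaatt
Xrcc4, chr13:90089609-90089858, minus strand: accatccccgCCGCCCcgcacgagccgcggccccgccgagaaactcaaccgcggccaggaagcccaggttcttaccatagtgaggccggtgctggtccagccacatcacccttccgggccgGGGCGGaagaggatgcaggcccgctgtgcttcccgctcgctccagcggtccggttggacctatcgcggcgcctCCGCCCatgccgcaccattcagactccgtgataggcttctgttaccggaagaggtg
The search covered 4 motifs on both strands, and none of the searched motifs overlapped another in these windows. The Vcan window held 2 GC boxes and 1 CCAAT box on the opposite strand, and the Xrcc4 window held 3 GC boxes. No GC box or CCAAT box was found in the Hapln1 window. A GC box occurs in 32.7% and CCAAT in 33.8% of 32851 RefSeq promoter windows of this length. A CTCF core motif (CC, 3 bases of any kind, AG, 2 of any kind, GGC) occurs in 7.17% of windows and TATAAA in 12.4%, and neither was found in any of the 3 shown, which says only that these letters are not in these 250 bases. The GC content was 62.4% for Vcan, 54.4% for Hapln1 and 68% for Xrcc4, against a median of 52.4% over all windows.

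Libraries held 24696374 to 72048935 counts. Those of replicate 1 in ES cells were the shallowest, at 24696374 to 29909368, and replicates differed more in ES cells than in differentiating cells, with a log2 ratio between replicates whose SD over genes was 0.919 to 1.08 in the 4 ES groups and 0.461 to 0.607 in the other 8. ES, differentiating and washout libraries were therefore fitted in 2 sets, 8 ES libraries and 16 others, and in a fit of all 24 only where the sets were compared. Ctcf mRNA ran from 211 to 287 CPM in the 12 auxin libraries, from 196 to 214 CPM in the 4 washout libraries and from 172 to 230 CPM in the 8 libraries without auxin. A degron acts on the protein, so mRNA does not check the depletion. As a check of the label of neural differentiation, 6 of 8 neural progenitor markers were higher in day 6 control cells than in 0 h ES cells. So were 9 of 10 fibroblast or mesenchyme markers, 4 of 6 muscle markers and 3 of 6 endoderm markers. Over all genes tested, 43.7% were called in that comparison in either direction. The share called higher alone is not given, so these counts have no like share beside them. By sum, ES markers were lower in day 6 control cells (452 to 470 CPM, against 3790 to 4640 CPM in 0 h ES cells). Neural crest markers were lower too (51.2 to 54.2 CPM, against 71.1 to 132 CPM). Cartilage markers were higher (127 to 135 CPM, against 22.2 to 23.6 CPM). Markers of several lineages were thus higher, and in bulk RNA fewer cells of a type and less RNA per cell cannot be told apart. The sums of the 6 neuron markers overlapped, at 211 to 226 CPM in day 6 control cells, against 211 to 270 CPM in 0 h ES cells.

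Without auxin, Vcan was lowest on day 2 and highest on day 6. Its level was 81.87 and 30.5 CPM in 0 h ES cells, 13 and 13.02 CPM on day 2, 82.39 and 86.43 CPM on day 4, and 225 and 218.3 CPM on day 6. The 3 differentiation days did not overlap one another, whereas the 2 ES libraries lay far apart and day 4 lay just above the higher of them. Day 2 was lower than 0 h ES cells by a log2 fold change of −2.11 ± 0.38 (SE, edgeR adjusted p = 0.00077), which was −1.23 without ES 0 h replicate 1 and −2.64 without ES 0 h replicate 2. Day 4 exceeded day 2 by 2.71 ± 0.17 (adjusted p = 9e-10), and day 6 exceeded day 4 by 1.40 ± 0.16 (adjusted p = 4.6e-06). Day 6 also exceeded 0 h ES cells, by 1.98 ± 0.37 (adjusted p = 0.00029), while day 4 did not pass against them (0.59 ± 0.36, adjusted p = 0.21). Fitted with only the 2 groups compared, the difference between day 2 and ES cells no longer passed (−2.15, adjusted p = 0.12), and without ES 0 h replicate 1 day 4 was higher by 1.47 (adjusted p = 0.0038).

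**Figure D1:**
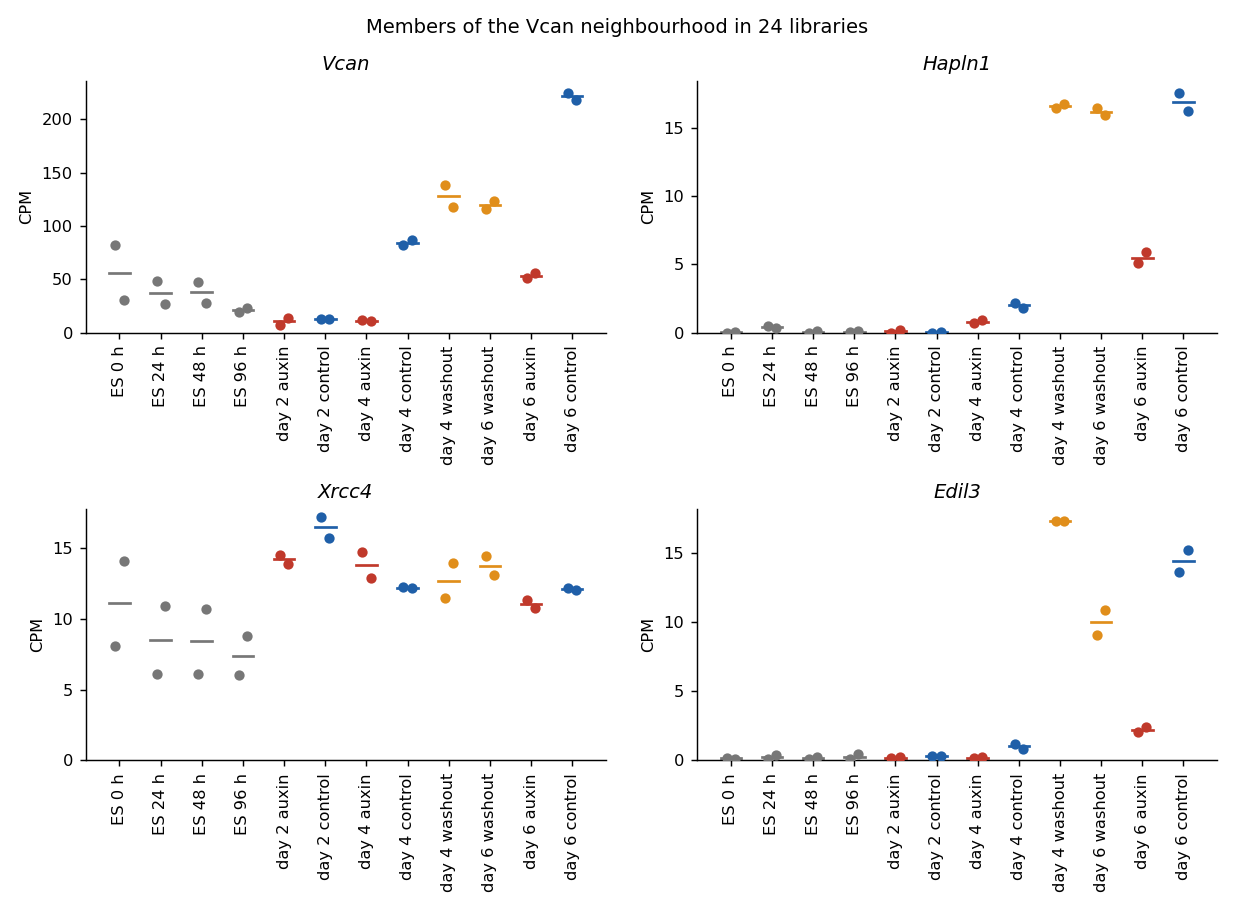
Level of each gene (y axis, CPM on a linear scale from 0) in every library of the 12 groups (x axis), with each point a library and each line the mean of 2. Vcan, Hapln1 and Edil3 are high in day 6 control cells and in both washout groups, and on days 4 and 6 lower in auxin cells than in control cells of the same day, while Xrcc4 stays between 6.058 and 17.23 CPM throughout.

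Hapln1 and Edil3 had almost no reads before day 4. Hapln1, the link protein gene, had 0 and 0.06009 CPM in day 2 control cells (0 and 4 reads), 2.207 and 1.788 CPM on day 4, and 17.54 and 16.25 CPM on day 6. Edil3, the integrin ligand gene, had 0.3408 and 0.3305 CPM in day 2 control cells, 1.204 and 0.8484 CPM on day 4, and 13.58 and 15.18 CPM on day 6. For both genes the 3 days did not overlap. Because of the 0 and 4 reads on day 2, the day 4 change of Hapln1 (5.89 ± 0.52) was 9.90 without day 2 control replicate 2. From day 4 to day 6 the log2 change was 3.09 ± 0.21 for Hapln1 and 3.82 ± 0.17 for Edil3 (edgeR adjusted p = 1.1e-08 and 6.7e-11), each more than that of Vcan in size, a difference that was not tested. In 0 h ES cells Hapln1 had 0 and 4 reads and Edil3 4 and 6, so folds against ES cells depend on a handful of reads and are not given. Against 0 h ES cells 1, 2 and 3 of the 4 members were called on days 2, 4 and 6, where 18.2%, 38.4% and 43.7% of genes were. In all, 3 of 4 members were higher on day 6 than on day 4, where 13.6% of all genes tested were, and 3 of 4 were higher on day 4 than on day 2, where 27.2% were.

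Xrcc4, the repair gene, followed another course. It was highest on day 2, with 17.23 and 15.71 CPM, and had 12.29 and 12.15 CPM on day 4 and 12.21 and 12.05 CPM on day 6. Days 4 and 6 overlapped, and both lay below day 2. Day 4 was lower than day 2 by a log2 fold change of −0.41 ± 0.10 (edgeR adjusted p = 0.0023), where 24.8% of genes were lower, and the call was lost with all 24 libraries in 1 fit (−0.43, adjusted p = 0.32). Per kb of annotated exon, the mean level on day 6 was 15.3 ± 0.327 CPM per kb for Vcan, 2.88 ± 0.0268 for Xrcc4, 2.86 ± 0.154 for Hapln1 and 1.05 ± 0.0827 for Edil3 (SD, n = 2 each). Xrcc4 and Hapln1 did not differ beyond their spread on this scale.

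Vcan was lower in auxin cells on days 4 and 6 of differentiation. On day 4 Vcan had 11.81 and 10.94 CPM in auxin cells, against 82.39 and 86.43 CPM in control cells. On day 6 it had 50.95 and 56.16 CPM in auxin cells, against 225 and 218.3 CPM in control cells. The groups were far apart on both days, with auxin cells at 13.5% of the control mean on day 4 and at 24.2% on day 6. The log2 fold change was −2.90 ± 0.17 on day 4 (edgeR adjusted p = 3.9e-09) and −2.06 ± 0.16 on day 6 (adjusted p = 5.2e-08). On day 2 Vcan had 7.282 and 13.74 CPM in auxin cells, against 13 and 13.02 CPM in control cells. The auxin libraries lay on both sides of the control libraries, and the difference did not pass (−0.28 ± 0.18, adjusted p = 0.31). It was −0.82 (adjusted p = 1.4e-06) without day 2 auxin replicate 2 and 0.07 (adjusted p = 0.69) without day 2 auxin replicate 1.

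Hapln1 and Edil3 moved with Vcan. On day 4 Hapln1 had 0.697 and 0.9104 CPM in auxin cells, against 2.207 and 1.788 CPM in control cells, and on day 6 it had 5.072 and 5.909 CPM in auxin cells, against 17.54 and 16.25 CPM in control cells. Both auxin libraries lay below both control libraries on each day, at log2 fold changes of −1.30 ± 0.28 (edgeR adjusted p = 0.0025) and −1.63 ± 0.19 (adjusted p = 3.9e-06). Edil3 had 0.1467 and 0.2124 CPM in day 4 auxin cells (8 and 14 reads), against 1.204 and 0.8484 CPM in day 4 control cells (72 and 56 reads). On day 6 Edil3 had 2.015 and 2.414 CPM in auxin cells, against 13.58 and 15.18 CPM in control cells. Its groups did not overlap either, and its log2 fold changes were −2.48 ± 0.30 (adjusted p = 1.1e-05) and −2.71 ± 0.15 (adjusted p = 1.1e-09). On day 2 both genes were near 0, with 0 and 12 reads of Hapln1 in auxin cells, against 0 and 4 in control cells, and neither passed (adjusted p = 0.32 for Hapln1 and 0.23 for Edil3). With all 24 libraries in 1 fit the Hapln1 call on day 4 was lost (−1.31, adjusted p = 0.24).

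Xrcc4 did not pass on any day. It had 14.75 and 12.9 CPM in day 4 auxin cells, against 12.29 and 12.15 CPM in day 4 control cells, and 11.33 and 10.79 CPM in day 6 auxin cells, against 12.21 and 12.05 CPM in day 6 control cells. Auxin libraries were thus above control on day 4 and below it on day 6, by log2 fold changes of 0.17 ± 0.10 and −0.14 ± 0.10 (edgeR adjusted p = 0.27 and 0.33). On day 2 the change was −0.20 ± 0.10 (adjusted p = 0.20). In sum, 3 of 4 members were lower in auxin cells on day 4 and on day 6, against 11.8% of all genes tested on day 4 and 15.2% on day 6, with 23.5% and 29.2% called in either direction. The median log2 fold change over the 4 members was −1.89 on day 4 and −1.85 on day 6, against 0 and 0.01 over all genes tested. On day 2 none of the 4 passed, where 18.3% of genes did (4126 genes, or 2214 without day 2 control replicate 1, 2495 without day 2 control replicate 2 and 7719 without day 2 auxin replicate 2), and no member had an unadjusted p below 0.05.

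**Figure D2:**
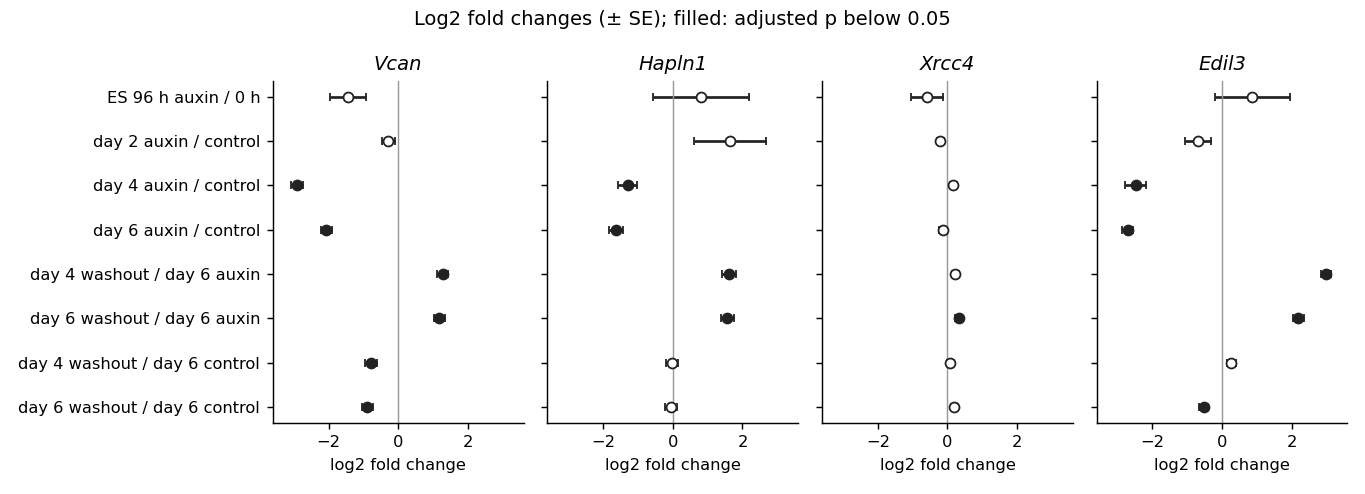
Log2 fold change (x axis) of each gene in 8 comparisons (rows), with bars of ± 1 SE and filled points for an adjusted p below 0.05. Auxin cells are lower for Vcan, Hapln1 and Edil3 on days 4 and 6, both washout groups are higher than day 6 auxin cells for these 3 genes, and the changes of Xrcc4 run from −0.59 to 0.33.

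Markers of cell types moved in the same libraries. Over all genes tested, 15.2% were lower and 14% higher in day 6 auxin cells than in control cells. On day 4 the shares were 11.8% lower and 11.8% higher. These shares stand beside each marker count that follows. All 6 neuron markers were lower in day 6 auxin cells, at a summed 16.6 to 17 CPM, against 211 to 226 CPM in control cells. That sum was also 211 to 270 CPM in 0 h ES cells and 149 to 150 CPM in day 2 control cells. It is thus not a mark of neurons alone. Of 8 neural progenitor markers, 6 were lower and 1 higher, and their sum was 601 to 614 CPM in auxin cells, against 636 to 648 CPM in control cells. Among them Olig2, a transcription factor of ventral neural progenitors, fell by 6.46 on the log2 scale and Nkx6-1, another, by 3.52. The 6 cartilage markers summed to 54.8 to 57.8 CPM in auxin cells, against 127 to 135 CPM in control cells, with 3 lower and 2 higher. Of 10 fibroblast or mesenchyme markers 7 were lower and 1 higher, with a sum of 712 to 713 CPM in auxin cells, against 796 to 821 CPM in control cells. The 8 ES markers rose in 7 cases and fell in 1, with a sum of 819 to 839 CPM in auxin cells, against 452 to 470 CPM in control cells, and 4 of 6 muscle markers rose. The sum of the muscle markers was 709 to 720 CPM in auxin cells, against 398 to 406 CPM in control cells. On day 4, 5 of 6 neuron markers and 6 of 8 neural progenitor markers were lower in auxin cells, with summed levels of 12.4 to 14.2 CPM and 520 to 525 CPM in auxin cells, against 29.1 to 30.1 CPM and 504 to 506 CPM in control cells. No marker of these lists was at 0 in both libraries of a day 4 or day 6 group. Their part in the change of Vcan, Hapln1 and Edil3 was not tested.

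Within 2 Mb of the Vcan start, 38 other annotated genes begin, 25 of them were in the count table, and 9 had enough reads to be tested in differentiating cells. Of these, 2 of 9 were called on day 4 and 2 of 9 on day 6, against 23.5% and 29.2% of all genes tested, shares near those of the neighbours. On day 4 both were lower in auxin cells. One was Ssbp2, a single-stranded DNA binding cofactor gene, with 16.58 and 16.9 CPM in auxin cells, against 20.5 and 18.82 CPM in control cells (−0.24 ± 0.08, edgeR adjusted p = 0.031). The other was the antisense transcript Gm4117, which had no reads in either auxin library and 10 and 12 reads in the control libraries (adjusted p = 0.0078), with the limit on overlapping genes stated above. On day 6 both were again lower, Ssbp2 (27.1 CPM on average in auxin cells, against 36.8 CPM in control cells, −0.45 ± 0.07, adjusted p = 0.00015) and Tmem167, which overlaps Xrcc4 (105 CPM in auxin cells, against 121 CPM in control cells, −0.21 ± 0.06, adjusted p = 0.014). On day 2 only Atg10, an autophagy gene, passed (−0.39 ± 0.13, adjusted p = 0.049). In washout cells against day 6 auxin cells Ssbp2 and Atg10 were higher in both groups (0.33 and 0.36 for day 4 washout, 0.32 and 0.54 for day 6 washout), Gm8546, a pseudogene that overlaps Hapln1, was higher after day 6 washout (1.28 ± 0.38), and Rps23, a ribosomal protein gene, was lower in both (−0.78 and −0.79). The median over the 9 genes was −0.07 on day 4 and −0.20 on day 6, against 0 and 0.01 over all genes tested.

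**Figure D3:**
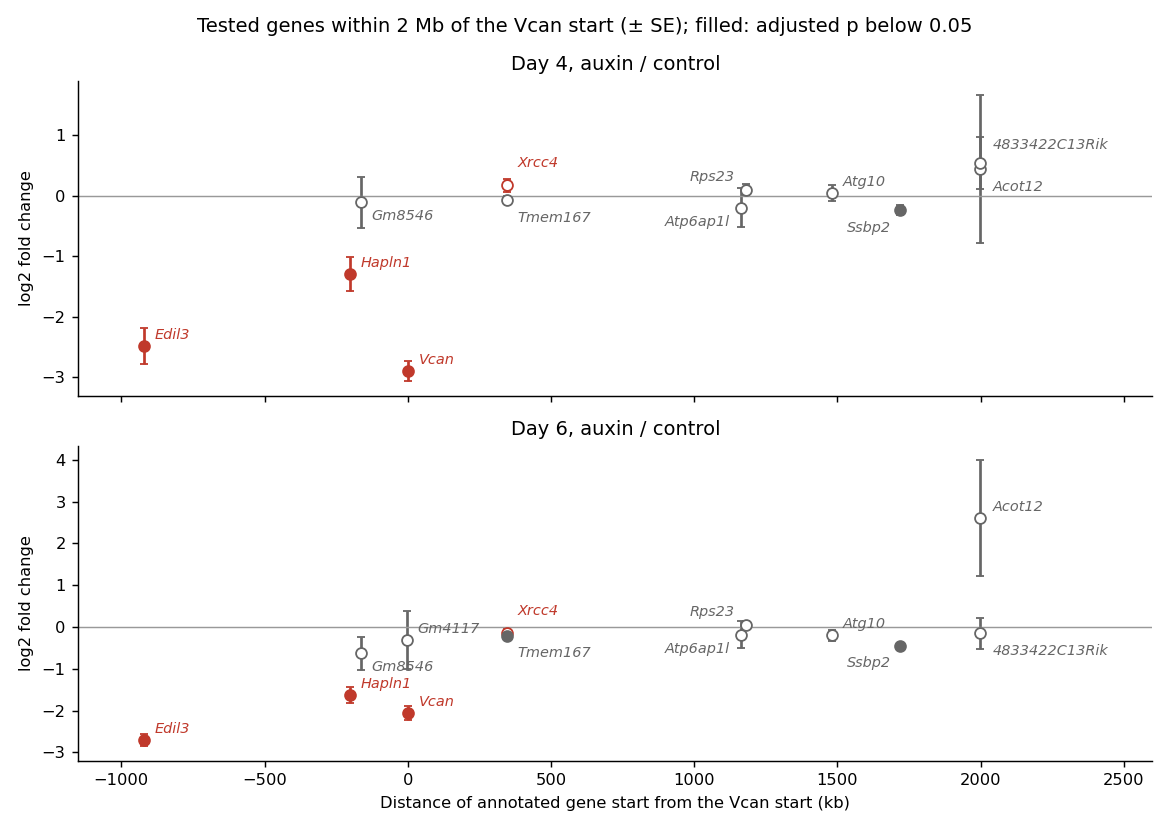
Log2 fold change of auxin over control (y axis, ± 1 SE) for the members (red) and the other tested genes (grey) against the distance of their annotated start from that of Vcan (x axis, kb), on day 4 and day 6; filled points have an adjusted p below 0.05, and Gm4117 on day 4 is left out because it had no reads in auxin cells. The 3 lowest points are Edil3, Hapln1 and Vcan, at −921, −202.7 and 0 kb, and on the other side Xrcc4 and Tmem167 lie between −0.21 and 0.17. Farther out on that side Ssbp2, at 1718 kb, was called lower on both days. Gm8546, at −164.1 kb between the starts of Hapln1 and Vcan, was called on neither.

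Whether the response to auxin differed between days was tested as a difference of effects. From day 2 to day 4 the auxin effect on Vcan moved by −2.62 ± 0.25 (edgeR adjusted p = 4.5e-06) and that on Edil3 by −1.79 ± 0.51 (adjusted p = 0.034), so 2 of 4 members passed where 9.9% of genes did. That background of 2237 genes ranged from 1218 without day 2 control replicate 1 to 6326 without day 2 auxin replicate 2, and moved by over 1.5 times for 7 of the 8 libraries left out. The Edil3 call was lost in 6 of 8 fits that left out a library, with values of −2.10 to −1.34. Hapln1 (−2.94 ± 1.06, adjusted p = 0.098) and Xrcc4 (0.37 ± 0.14, adjusted p = 0.12) did not pass. Between days 4 and 6 none of the 4 passed, where 4.24% of genes did. The Vcan effect was less negative on day 6 than on day 4 by 0.84 ± 0.23 (adjusted p = 0.05, just above the threshold), and it passed with counts halved (0.85, adjusted p = 0.034) and with no filter on low counts (0.82, adjusted p = 8.4e-10). Within auxin cells the difference of Vcan between days 4 and 2 did not pass (0.10 ± 0.18, adjusted p = 0.69), with 11.81 and 10.94 CPM on day 4 and 7.282 and 13.74 CPM on day 2, and Vcan was higher on day 6 than on day 4 by 2.24 ± 0.17 (adjusted p = 6.7e-08). From day 2 to day 4 of auxin only Hapln1 of the 4 passed (2.95 ± 0.51, adjusted p = 0.00013), where 49.9% of genes did. Its day 2 auxin libraries held 0 and 12 reads, and the value was 2.11 without the first of them and 8.61 without the second. Without day 2 auxin replicate 2 the change of Vcan to day 4 was 0.64 (adjusted p = 2.5e-05), and without day 2 auxin replicate 1 it was −0.25 (adjusted p = 0.036). From day 4 to day 6 in auxin cells Hapln1 also rose (2.76 ± 0.25) and so did Edil3 (3.59 ± 0.27), so 3 members were higher and Xrcc4 was lower (−0.31 ± 0.10, adjusted p = 0.032), against 26.1% of genes called. Leaving out day 4 auxin replicate 1, day 6 auxin replicate 1 or day 6 auxin replicate 2 ended that call of Xrcc4 (−0.22, −0.35 and −0.28).

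After washout of auxin Vcan, Hapln1 and Edil3 were higher than in day 6 auxin cells, at different levels relative to control cells. Vcan had 138.5 and 117.5 CPM in day 4 washout cells and 115.8 and 123.4 CPM in day 6 washout cells, against 50.95 and 56.16 CPM in day 6 auxin cells and 225 and 218.3 CPM in day 6 control cells. Both washout groups lay above day 6 auxin and below day 6 control without overlap, at 57.7% and 54% of the control mean, and they overlapped each other. Over day 6 auxin cells Vcan was higher by 1.28 ± 0.16 in day 4 washout cells (edgeR adjusted p = 1.2e-05) and by 1.18 ± 0.16 in day 6 washout cells (adjusted p = 2e-05). Against day 6 control cells its log2 fold change was −0.78 ± 0.16 (adjusted p = 0.00092) in day 4 washout cells and −0.89 ± 0.16 (adjusted p = 0.00027) in day 6 washout cells. With all 24 libraries in 1 fit the 2 comparisons with control no longer passed (adjusted p = 0.24 and 0.14), and day 6 washout against day 6 auxin stood at 1.16 (adjusted p = 0.05).

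Hapln1 had 16.41 and 16.7 CPM in day 4 washout cells and 16.41 and 15.9 CPM in day 6 washout cells, against 5.072 and 5.909 CPM in day 6 auxin cells and 17.54 and 16.25 CPM in day 6 control cells. Both washout groups overlapped the control group, at log2 fold changes of −0.02 ± 0.17 and −0.06 ± 0.17 (edgeR adjusted p = 0.95 and 0.82), and both exceeded day 6 auxin cells, by 1.61 ± 0.19 and 1.57 ± 0.19. Edil3 had 17.3 and 17.28 CPM in day 4 washout cells and 9.081 and 10.85 CPM in day 6 washout cells, against 2.015 and 2.414 CPM in day 6 auxin cells and 13.58 and 15.18 CPM in day 6 control cells. Day 4 washout cells lay above the control range (0.27 ± 0.13, adjusted p = 0.12, which did not pass) and day 6 washout cells below it (−0.52 ± 0.13, adjusted p = 0.0049). Without day 6 control replicate 2, or without day 6 washout replicate 1, that last call was lost (−0.44 and −0.40). Day 6 washout cells had less Edil3 than day 4 washout cells (−0.80 ± 0.13, adjusted p = 0.00065), the one member that passed in a comparison where 13.2% of genes did, and this call was lost with all 24 libraries in 1 fit (adjusted p = 0.81).

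Xrcc4 had 11.47 and 13.96 CPM in day 4 washout cells and 14.43 and 13.1 CPM in day 6 washout cells, against 11.33 and 10.79 CPM in day 6 auxin cells. It passed for day 6 washout (0.33 ± 0.10, edgeR adjusted p = 0.016) and not for day 4 washout (0.22 ± 0.10, adjusted p = 0.11). The first call was lost without day 6 auxin replicate 2 (0.30) or day 6 washout replicate 1 (0.28), and the second was gained without day 4 washout replicate 1 (0.35, adjusted p = 0.035). Against day 6 auxin cells, then, 3 of 4 members were higher in day 4 washout cells, where 17.3% of genes were, and 4 of 4 in day 6 washout cells, where 20.4% were. Against day 6 control cells 1 of 4 members was lower in day 4 washout cells, where 17.1% of genes were, and 2 of 4 in day 6 washout cells, where 18.4% were. Against day 4 auxin cells, the stage at which auxin was removed, day 4 washout cells, harvested 2 days later, were higher for 3 of 4 members, where 22.4% of genes were, with log2 fold changes of 3.52 ± 0.18 for Vcan, 4.37 ± 0.24 for Hapln1 and 6.58 ± 0.22 for Edil3. Those days of culture are part of that contrast, and in auxin cells kept on auxin the change from day 4 to day 6 was 2.24 for Vcan, 2.76 for Hapln1 and 3.59 for Edil3. Edil3 had 8 and 14 reads in day 4 auxin cells, so its folds over those cells rest on few reads. The washout comparisons share their day 6 libraries. For day 4 washout against day 4 auxin cells, and for day 6 washout cells, harvested on day 8, removal of auxin and 2 further days of culture cannot be told apart. The fibroblast or mesenchyme markers summed to 891 to 929 CPM in day 4 washout cells and 1440 to 1490 CPM in day 6 washout cells, against 712 to 713 CPM in day 6 auxin cells and 796 to 821 CPM in day 6 control cells. Muscle markers summed to 642 to 690 CPM in day 4 washout cells and 1320 to 1350 CPM in day 6 washout cells, against 709 to 720 CPM in day 6 auxin cells and 398 to 406 CPM in day 6 control cells. Of the muscle markers, 6 of 6 were higher in day 6 washout than in day 6 control cells. In that comparison 8333 of 22587 genes tested were called in either direction, 4145 of them lower. For the other marker lists only sums are given here. Cartilage markers summed to 98.2 to 103 CPM in day 4 washout cells and 58.9 to 60.1 CPM in day 6 washout cells, against 54.8 to 57.8 CPM in day 6 auxin cells and 127 to 135 CPM in day 6 control cells. Their sum was lower in day 6 washout than in day 4 washout cells. So were the sums of ES markers (614 to 638 CPM, against 687 to 709 CPM) and neural crest markers (89.4 to 94.1 CPM, against 98.2 to 102 CPM). Those of neural progenitor, neuron, fibroblast or mesenchyme, endoderm and muscle markers were higher. Neuron markers summed to 26.8 to 27.1 CPM in day 4 washout cells and 34.1 to 35.4 CPM in day 6 washout cells, against 16.6 to 17 CPM in day 6 auxin cells and 211 to 226 CPM in day 6 control cells. Their part in the levels of the members was not tested.

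**Figure D4:**
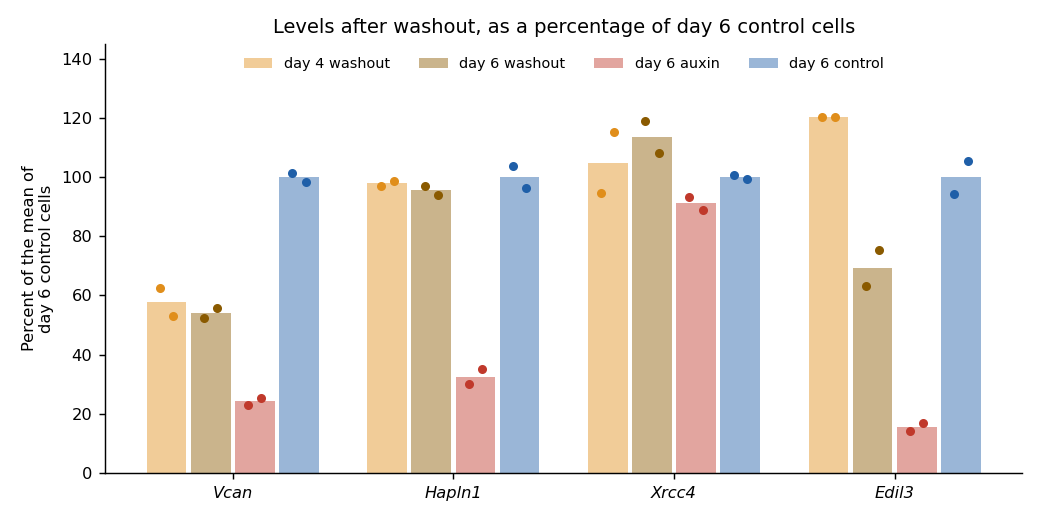
Level of each gene (bars, mean of 2 libraries; points, single libraries) as a percentage of its mean in day 6 control cells (y axis), in both washout groups, day 6 auxin and day 6 control cells. After day 4 washout Vcan stood at 57.7%, Hapln1 at 98% and Edil3 at 120% of day 6 control cells, and in day 6 auxin cells at 24.2%, 32.5% and 15.4%.

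In ES cells no gene passed in the fit of the 8 ES libraries without a replicate block, and with the block 23, 40 and 621 genes passed at 24, 48 and 96 h, none of them a member. Vcan had 81.87 and 30.5 CPM at 0 h, 48.24 and 26.68 CPM at 24 h, 47.72 and 27.95 CPM at 48 h and 19 and 22.81 CPM at 96 h of auxin. Both 96 h libraries lay below both 0 h libraries, and the log2 fold change was −1.44 ± 0.51 (edgeR adjusted p = 0.45, unadjusted p = 0.02), or −0.56 without ES 0 h replicate 1. The 24 h and 48 h libraries overlapped those at 0 h (−0.59 ± 0.50 and −0.58 ± 0.50). Within a replicate number, by which ES libraries shared differences though no label pairs them, Vcan was lower than at 0 h at every later time. In the 0, 24 and 48 h groups replicate 1 was the higher library, and at 96 h replicate 2 was. With the replicate number as a block the changes were −0.52, −0.50 and −1.24 at 24, 48 and 96 h (adjusted p = 0.92, 0.60 and 0.093), and with all 24 libraries in 1 fit the 96 h change was −1.42 (adjusted p = 0.023). At 96 h edgeR called 0 genes (0%), 1767 had an unadjusted p below 0.05, and DESeq2 called 365.

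The other members were also not called in ES cells. Xrcc4 had 6.058 and 8.769 CPM at 96 h, against 8.089 and 14.1 CPM at 0 h, ranges that overlap (−0.59 ± 0.46, edgeR adjusted p = 0.80). Within each replicate number Xrcc4 too was lower than at 0 h at 24, 48 and 96 h, and with the block it did not pass (−0.56 at 96 h, adjusted p = 0.26). Hapln1 had 0 and 4 reads at 0 h, 12 and 20 at 24 h, 0 and 8 at 48 h and 2 and 6 at 96 h, and it did not pass (3.03 ± 1.30 at 24 h, unadjusted p = 0.046, adjusted p = 1). Edil3 had 2 and 24 reads at 96 h, against 4 and 6 at 0 h. Set beside the effect at 96 h in ES cells, the day 4 effect of auxin was more negative for Edil3 (−3.51 ± 0.83, adjusted p = 0.045), and 1 of 4 members passed where 1.23% of genes did (294 genes, or 49 without day 4 control replicate 1 and 691 without ES 96 h replicate 2, the lowest and highest over 8 libraries left out). That value rests on these few reads and was −1.41 without ES 96 h replicate 2. The labels give no hours of auxin for differentiating cells, so the exposures compared may not be matched. Vcan did not pass there (−1.47 ± 0.51, adjusted p = 0.21), though it did without ES 0 h replicate 1 (−2.34, adjusted p = 0.0099).

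Ordered by mean CPM over the 12 groups, Vcan ran from day 6 control (221.6) through day 4 washout (128), day 6 washout (119.6), day 4 control (84.41), 0 h ES (56.19), day 6 auxin (53.55), 48 h ES (37.84), 24 h ES (37.46), 96 h ES (20.9), day 2 control (13.01) and day 4 auxin (11.38) to day 2 auxin (10.51). Neighbours whose libraries overlapped were the 2 washout groups, 0 h ES with day 6 auxin, 48 h with 24 h ES, and day 4 auxin with day 2 auxin. Edil3 was highest in day 4 washout (17.29) and then in day 6 control (14.38), and from day 2 control (0.3357) downward its groups overlapped. Hapln1 had its 3 highest groups, day 6 control, day 4 washout and day 6 washout, between 16.16 and 16.9 with overlap. For Xrcc4 the groups next to each other in order overlapped, except day 2 control (16.47) and day 2 auxin (14.22).

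Over the means of the 8 differentiation and washout groups, Pearson's r of log2 CPM was 0.938 between Vcan and Edil3, 0.906 between Vcan and Hapln1, and −0.63 between Vcan and Xrcc4. Over all 12 groups these were 0.822, 0.777 and −0.0482. The groups share time in culture, and the values are given as a description. Of 13207 genes ranked, those most like Vcan over the 12 group means were Ampd2 (r = 0.939), Prdm4 (0.934), Traf4 (0.934), Drg2 (0.928) and Nradd (0.915). Their range was small beside that of Vcan, with Ampd2 between 82.52 and 137.7 CPM and Traf4 between 106.5 and 171.3 CPM, against 10.51 to 221.6 CPM for Vcan. Over the 8 groups alone Vash2 and Fndc3c1 were most like Vcan (0.984 each). Hapln1 was most like Tmem123 and Vopp1 (0.984 each) over 12 groups, Edil3 like Tmtc2 (0.98) and Xrcc4 like Elp4 (0.974).

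Genes that act with versican in the matrix were taken from lists. The hyaluronan list held 16 symbols, with Tmem2 and Cemip2 for the same gene. Of 14 tested hyaluronan genes, 4 were lower in auxin cells on day 4 and 5 on day 6, with none higher. Over all genes tested, 11.8% were lower and 11.8% higher on day 4, and 15.2% lower and 14% higher on day 6, shares that stand beside each list count that follows. Has2, the main hyaluronan synthase of embryonic tissue, had 1.155 and 0.5766 CPM in day 4 auxin cells, against 5.602 and 5.575 CPM in control cells, and 2.627 and 1.982 CPM in day 6 auxin cells, against 15.85 and 16.46 CPM in control cells. The groups lay apart on both days, at log2 fold changes of −2.73 ± 0.22 and −2.81 ± 0.18 (edgeR adjusted p = 1.3e-07 and 6.2e-09). On day 6 Tmem2, a cell surface hyaluronidase gene, fell by 0.69, Cd44, the main hyaluronan receptor gene, by 0.63 and Cemip by 0.36 on the log2 scale. The median over the list was −0.02 on day 4 and −0.20 on day 6. In day 6 washout cells Has2 had 9.011 and 8.804 CPM and lay between day 6 auxin and day 6 control cells, with log2 fold changes of 1.96 ± 0.19 over the first (adjusted p = 5e-07) and −0.85 ± 0.16 over the second (adjusted p = 0.00049).

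Among 7 versican-cleaving proteases only Adamts1 was lower on both days. Adamts1 had 5.796 and 5.933 CPM in day 4 auxin cells, against 20.37 and 19.59 CPM in control cells, and 37.32 and 35.58 CPM in day 6 auxin cells, against 103 and 103.6 CPM in control cells (−1.77 ± 0.07 and −1.51 ± 0.06, edgeR adjusted p = 8.6e-11 and 5.9e-11). Its groups did not overlap, and in day 6 washout cells it had 93.76 and 91.45 CPM, which did not pass against control cells (adjusted p = 0.064). Adamts20 (0.64) and Adamts8 (0.44) were higher on day 4. The other lecticans, the proteoglycan family of versican, went different ways on day 6. Ncan, a brain proteoglycan gene, was lower (1.62 CPM in auxin cells, against 9.47 CPM in control cells, −2.55 ± 0.22), and Bcan (1.68 ± 0.30) and Acan (1.47 ± 0.20), the genes of brevican and aggrecan, were higher at mean levels of 1.48 and 2.53 CPM in auxin cells, against 0.461 and 0.917 CPM in control cells. Of the other link protein genes Hapln4 was higher on day 6 (0.77 ± 0.15) and Hapln3 lower (−0.47 ± 0.14).

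Of 22 genes of chondroitin sulfate synthesis, which build the sugar chains of versican, 8 were lower and 2 higher on day 4, and 7 lower and 5 higher on day 6, with medians of −0.05 and −0.07. Csgalnact1, which starts chain growth, fell by 0.77 on day 4 and by 1.17 on day 6, and Chst11, a chondroitin sulfotransferase, fell by 0.54 and 0.68 on the log2 scale. Of 10 versican partners, Fbn2, the fibrillin-2 gene, was lower on day 4 (−1.15 ± 0.16, 90.3 CPM in auxin cells, against 199 CPM in control cells) and Fbln1 higher (0.35 ± 0.06). On day 6 Tnr, the tenascin-R gene, was lower (0.0661 CPM in auxin cells, against 1.25 CPM in control cells), and Egfr (1.28 ± 0.10), Tlr2 (1.03 ± 0.12) and Tnc (0.38 ± 0.07) were among 4 that were higher. Of 4 relatives and receptors of Edil3, 3 were higher on both days and 1 did not pass, with Itgb3, an integrin subunit that binds Edil3, at 0.85 ± 0.13 on day 4 and 1.30 ± 0.12 on day 6. Of 11 tested end joining genes, the pathway of Xrcc4, none passed on day 4, and on day 6, when 29.2% of all genes were called, 3 of the 11 were, a share near that background. Lig4 (−0.30 ± 0.08) and Xrcc5 (−0.27 ± 0.06) were lower and Aplf (0.26 ± 0.09) higher.

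**Figure D5:**
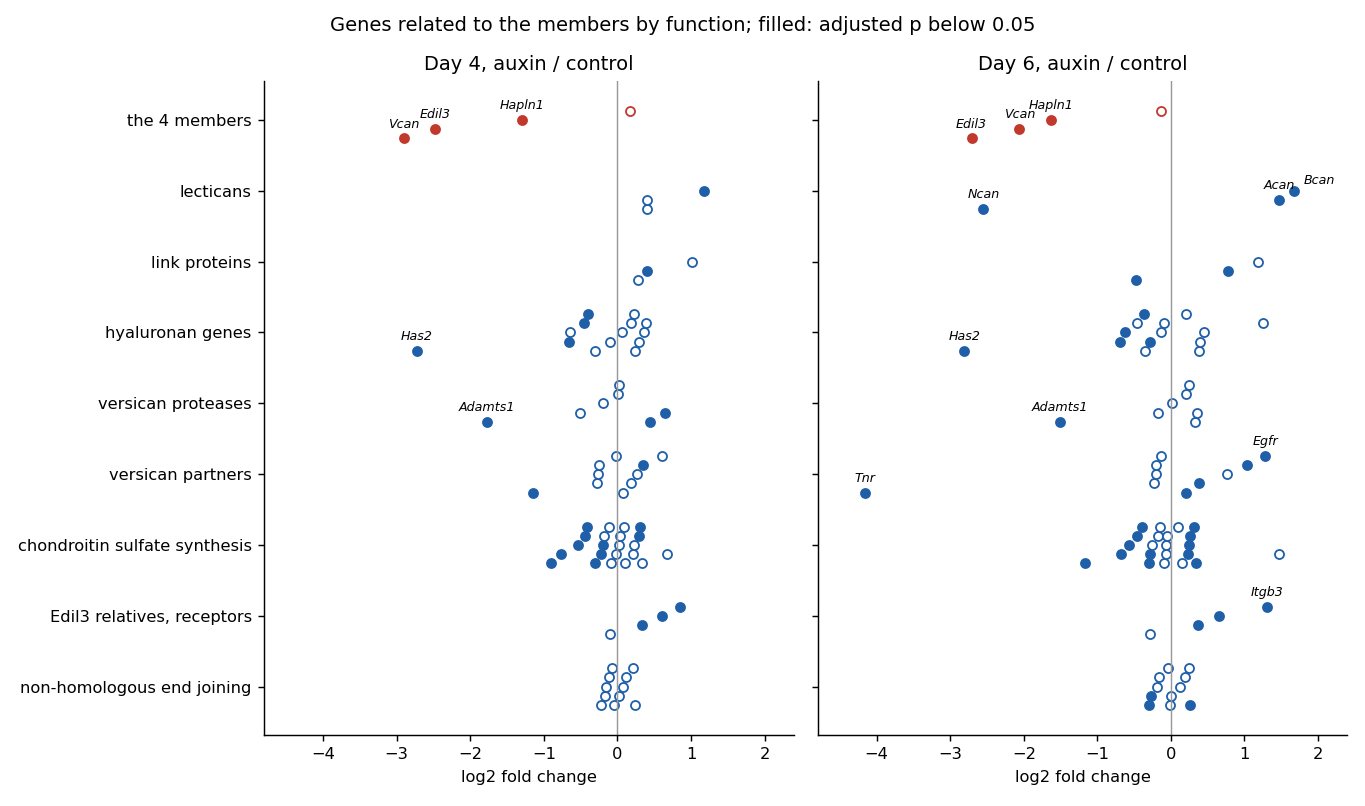
Log2 fold change of auxin over control (x axis) on day 4 and day 6 for the 4 members (red) and the tested genes of 8 lists related to them by function (blue); filled points have an adjusted p below 0.05 and those beyond 1.2 in size are named. Has2 and Adamts1 stand at the low end of their lists on both days, and the end joining genes lie within −0.30 and 0.26 among those called.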

How the data were processed

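RNA of 24 libraries (12 groups of 2) was measured. The values the authors deposited are unnormalized read counts, 1 row a gene, and per the submitters' processing notes STAR, HTSeq, edgeR and the mm10 build were used. Their versions, the annotation and the strand setting are not given in sources used here. The single row that names no gene was dropped. In 59.6% to 78% of values from 1 to 20 per library the count was even, so halved counts were tried as an alternative. Intervals for folds cover the spread between libraries only.

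Library sizes were scaled by TMM and the counts fitted with edgeR 4.0.16 (quasi-likelihood, filterByExpr with a minimum count of 10 and a minimum total of 15, R 4.3.3). Contrasts of group means gave 22 comparisons, adjusted by Benjamini-Hochberg over all genes tested, with calls at an adjusted p below 0.05. Tests across genes were checked on simulated data with 200 genes changed 4-fold. Of these, 67.5% were found in the ES fit, 99.5% in the fit of the 16 others and 91.5% in the fit of all 24. The ES fit thus missed more changes of that size. In the same order, 11, 11 and 3 unchanged genes were called. The changed genes lay above a floor of mean CPM that Hapln1 and Edil3 did not reach in ES cells. Replicate differences shared between groups were not simulated. The 8 ES libraries and the 16 others were fitted apart (20361 and 22587 genes tested), and all 24 together (23831 genes) for comparisons across them. The SE of a fold change is its size over the root of F. CPM per kb uses merged exon lengths of GENCODE vM21.

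The members, the lists and the tests were chosen with earlier results of these data known. The text names the members, genes starting within 2 Mb of Vcan that passed in an auxin or washout comparison, up to 4 called genes of each list with the largest changes, and the genes most correlated with each member over group means (log2 CPM, prior count 2). Olig2 and Nkx6-1 were named after their values were seen. Sequences come from RefSeq (GRCm38.p6), with an entry for 3 of 4 members.

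Whether replicate numbers pair libraries was checked by the correlation, across genes, of the replicate differences of 2 groups. In the 6 pairs of ES groups r was 0.144 to 0.515, so ES libraries of the same number shared differences. No label pairs them. Replicate 1 was also the shallower library in every ES group, so pairing and depth cannot be told apart. In the 28 pairs of differentiation groups it was −0.113 to 0.0708. Alternatives were DESeq2 1.42.0, its size factors, no filter, halved counts, a replicate block, other sets of libraries, a stricter threshold and leaving out each library.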

Additional observations from a re-analysis of the deposited data

Results flagged for a closer look

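The effect of auxin on 2 members differed between stages by a test of the difference itself. For Vcan the log2 effect on day 4 minus that on day 2 was −2.62 (edgeR adjusted p = 4.5e-06), and it was lower in auxin cells in 2 of 2 libraries on day 4. It kept its call in every alternative run, at −2.97 to −2.08 with a library left out.

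For Edil3 the same difference was −1.79 (adjusted p = 0.034). It passed without day 4 control replicate 2 or day 2 auxin replicate 1 and not without any of the other 6 libraries, with halved counts (adjusted p = 0.088) or with all 24 libraries in 1 fit (adjusted p = 0.74). The Edil3 effect on day 4 minus that at 96 h in ES cells, exposures that the labels do not match, was −3.51 (edgeR adjusted p = 0.045). It was lost in 6 of 8 fits that left out a library, among them −1.41 without ES 96 h replicate 2, and with only the groups compared (adjusted p = 0.52). Edil3 had 2 and 24 reads at 96 h, against 4 and 6 at 0 h, and 8 and 14 reads in day 4 auxin cells, against 72 and 56 in day 4 control cells.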

How the results depend on the processing

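The log2 fold changes of Vcan, Hapln1 and Edil3 on days 4 and 6 of auxin kept their direction in all 11 alternatives each, at −2.96 to −2.84, −1.52 to −1.14 and −2.79 to −2.21 on day 4 and −2.13 to −2.0, −1.74 to −1.53 and −2.84 to −2.59 on day 6. All stayed called but Hapln1 on day 4 in the fit of all 24 libraries. A replicate block changed no call of a member in 88 results. The block moved the count of genes called in ES cells to 23, 40 and 621 at 24, 48 and 96 h, against 0 without it.

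For Vcan, fits with no filter on low counts gave values that now passed at 96 h in ES cells (−1.42), on day 2 of auxin (−0.29), for the day 6 minus day 4 effect (0.82), for day 4 control against ES cells (0.66) and for the day 4 minus ES 96 h effect (−1.52). The fit of all 24 libraries gave −1.42 at 96 h in ES cells, now passing, and −0.79, 1.16 and −0.89 for day 4 washout against control, day 6 washout against auxin and day 6 washout against control, no longer passing. Halved counts gave 0.85 for the day 6 minus day 4 effect, now passing, and the 2 groups alone gave −2.15 for day 2 control against ES cells, no longer passing. The cause was not tested.

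With a library left out, Vcan ranged over −1.14 to 0.30 at 24 h and −1.13 to 0.30 at 48 h in ES cells, −0.82 to 0.07 on day 2 of auxin, −0.25 to 0.64 for auxin day 4 against day 2, −0.22 to 0.03 between the washouts, −2.64 to −1.23 for day 2 and 0.06 to 1.47 for day 4 control against ES cells and −2.34 to −0.93 for the day 4 minus ES 96 h effect. Values of Xrcc4 crossed 0 at 24 h (−0.86 to 0.07) and 48 h (−0.86 to 0.04) in ES cells, for day 6 against day 4 control (−0.01 to 0.01, and 0.01, 0 and 0.01 with other size factors, no filter and DESeq2), auxin day 4 against day 2 (−0.14 to 0.05), day 4 washout against control (−0.06 to 0.20) and against day 4 auxin (−0.23 to 0.03), between the washouts (−0.01 to 0.25), and for day 4 (−0.21 to 0.61) and day 6 control (−0.22 to 0.60) against ES cells. Those of Edil3 did at 24, 48 and 96 h in ES cells (−0.70 to 1.49, −0.19 to 0.72 and −1.07 to 1.60), for auxin day 4 against day 2 (−0.48 to 0.28) and the day 6 minus day 4 effect (−0.51 to 0.07). Those of Hapln1 did at 48 h (−3.99 to 4.72), on day 2 of auxin (−4.02 to 5.64), for day 4 washout against control (−0.07 to 0.03), the day 4 minus day 2 effect (−6.93 to 2.72) and day 2 control against ES cells (−4.54 to 3.89). Of these, only Vcan in day 2 control against ES cells passed with all libraries (−2.11, edgeR adjusted p = 0.00077).

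Counts of genes called moved most with all 24 libraries in 1 fit, to 313, 803 and 1564 on days 2, 4 and 6 of auxin, against 4126, 5318 and 6588. For the washouts the alternatives gave 1606 to 7922 against 7823 and 2337 to 9147 against 9097 over day 6 auxin cells, and 1635 to 7714 against 7658 and 2355 to 8422 against 8333 over control cells. Mean levels moved by at most 6.71% with other library scaling. Low counts limit Hapln1 and Edil3 before day 4, and Edil3 also in day 4 auxin cells (8 and 14 reads).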
